A study of Mus musculus with 7 samples.

Results

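The immunity-related GTPase genes examined here are Igtp, Irgm1, Irgm2, Iigp1, Tgtp1, Tgtp2 and Ifi47. They were taken by symbol, and all 7 were found among the 23420 gene rows of the table. Their RNA was measured by bulk sequencing of mouse ventricle in 4 control libraries, from mice labelled Ctla4+/+;Pdcd1-/-, and in 3 ICI-myocarditis libraries, from mice labelled Ctla4+/-;Pdcd1-/-. All mice were labelled as untreated and aged 3 to 6 weeks, and all lacked Pdcd1, which encodes the checkpoint receptor PD-1. The groups therefore differed, per the labels, by 1 copy of Ctla4, a second checkpoint receptor of T cells. No group with intact Pdcd1 was analysed here, and no checkpoint antibody was given, so the loss of the genes stands in for checkpoint inhibition.

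Immunity-related GTPases, also called p47 GTPases, are interferon-inducible proteins that act inside the cell that makes them. The effector members gather on the membrane of vacuoles that hold intracellular parasites and bacteria and break it up, while the Irgm proteins sit on the cell's own membranes and hold the effectors inactive there. Interferon-gamma switches the genes on through gamma-activated sequences (GAS) and through interferon-stimulated response elements (ISRE), the latter bound by interferon regulatory factors. In resting tissue their RNA is usually low.

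In GRCm38, Irgm1, Tgtp1, Tgtp2 and Ifi47 lie in 1 cluster at chr11:48861968-49096974 and Igtp and Irgm2 lie together at chr11:58199556-58222782, both on chromosome 11. RefSeq promoter windows (GRCm38.p6, 250 bases before to 50 after the start) matched 6 of the 7 genes. Searched on both strands, the ISRE core (GAAA, any 2 bases, GAAA) was in 5 of these 6 windows, against 3.44% of the 32851 windows of the table. The GAS motif (TTC, any 3 bases, GAA) was in 4 of the 6, against 8.30%. The following 75 bases around the ISRE are shown because Igtp, Irgm2, Tgtp1 and Tgtp2 carry both motifs side by side, and Irgm1 carries 2 overlapping ISRE copies without GAS. Capitals mark the motif letters, and the stretch was chosen after the windows had been seen.
Igtp, chr11:58199477-58199551, plus strand: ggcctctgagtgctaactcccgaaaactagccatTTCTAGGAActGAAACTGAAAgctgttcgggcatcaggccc
Irgm2, chr11:58214868-58214942, plus strand: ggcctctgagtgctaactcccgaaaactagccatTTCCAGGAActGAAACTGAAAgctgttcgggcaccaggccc
Tgtp1, chr11:48992294-48992368, minus strand: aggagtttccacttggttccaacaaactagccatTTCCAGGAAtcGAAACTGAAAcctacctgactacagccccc
Tgtp2, chr11:49064253-49064327, minus strand: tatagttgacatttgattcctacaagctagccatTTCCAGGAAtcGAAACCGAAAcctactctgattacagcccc
Irgm1, chr11:48871415-48871489, minus strand: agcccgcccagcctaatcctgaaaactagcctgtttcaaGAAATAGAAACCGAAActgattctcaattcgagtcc

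The Igtp and Irgm2 stretches were identical at 73 of 75 bases (97.3%), and those of Tgtp1 and Tgtp2 at 73.3%. The ISRE began 34 bases before the annotated start of Igtp and 64 before that of Irgm2. Neither motif was in the Ifi47 window. A match of letters is a description and was not tested as a binding site.

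Total reads recovered from the normalized values ranged from 20931730 to 39037176 per library. Of the genes that passed the filter on low values, 15258 in all, limma called 1787 higher and 610 lower in ICI-myocarditis at an adjusted p under 0.05. Pdcd1 itself gave 2.50 to 244 normalized counts in the controls and 1096 to 1481 in ICI-myocarditis although all mice were labelled as lacking it, and Ctla4 gave 29.2 to 113 and 251 to 373. The labels do not say which exons were deleted, so neither gene checks the genotype. The heart label was borne out by cardiomyocyte markers such as Ryr2, Tnni3 and Myh6, whose summed level over 8 genes was 2369807 to 4796841 in controls and 1799251 to 2889873 in ICI-myocarditis. Control 2 stood apart from the other controls for these genes, and its values are given throughout.

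All 7 genes rose in ICI-myocarditis. Their fold changes ran from 7.67 for Tgtp1 to 19.9 for Igtp, and their median log2 fold change was 3.75, against -0.02 over all genes tested. All 7 passed the filter and were called higher at an adjusted p under 0.05 (limma), while 11.7% of all genes tested were called higher. In all 7, every ICI-myocarditis library lay above every control, as it did for 17.3% of all genes tested (28.6% did not overlap in either direction). Together the genes took 0.542% ± 0.0497 (SD, n = 3) of the reads in ICI-myocarditis and 0.0540% ± 0.0620 (SD, n = 4) in controls. Control 2 stood at 0.147% and controls 1, 3 and 4 at 0.0171%, 0.0320% and 0.0203%, so that without control 2 the control mean was 0.0232% ± 0.00787 (SD, n = 3). In bulk tissue, a change in the number of cells that make an RNA and a change in RNA per cell cannot be told apart.

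**Figure D1:**
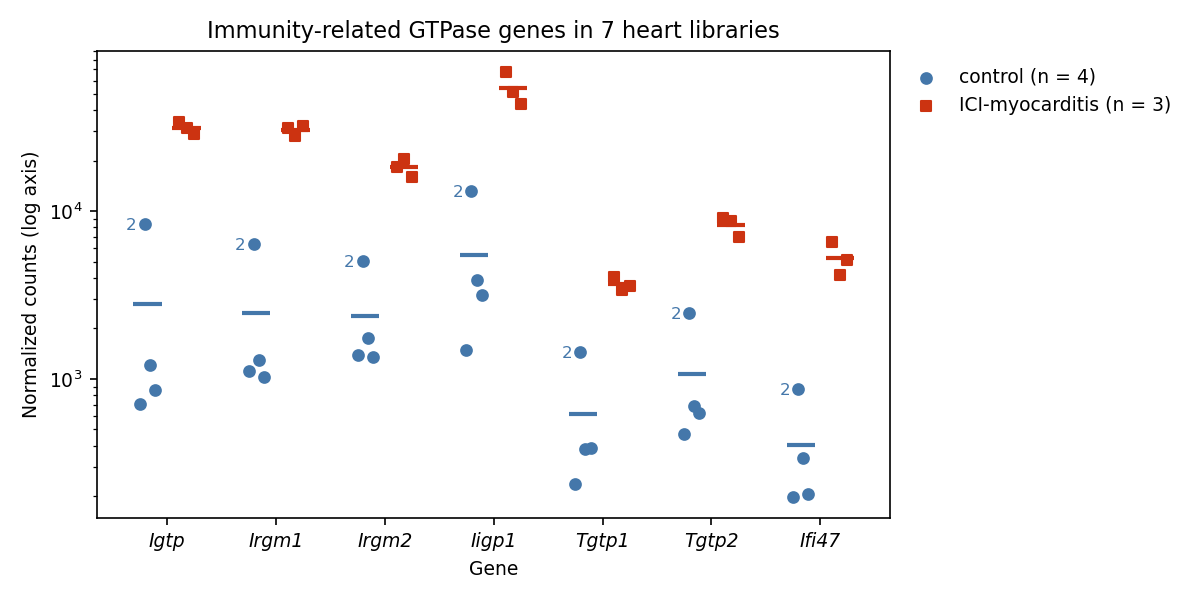
Normalized counts (log axis) of the 7 genes in each library. Circles are controls (n = 4), squares ICI-myocarditis (n = 3), short lines the group means, and the digit 2 marks control 2. Every square lies above every circle of its gene, and control 2 is the highest control for each.

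The regulatory Irgm proteins are encoded by Irgm1, Irgm2 and Igtp, the last also known as Irgm3. Igtp stood at 34176, 31113 and 28878 normalized counts in ICI-myocarditis libraries 1 to 3 and at 708, 8414, 1201 and 858 in controls 1 to 4. Its lowest ICI-myocarditis library was 3.43 times its highest control, and control 2 was 9.12 times the mean of the other controls, the largest such ratio of the 7 genes. The log2 fold change was 4.31 (standard error 0.740, adjusted p = 0.00658 by limma). Irgm1, which also takes part in autophagy and mitochondrial quality control, stood at 31314, 28119 and 31979 in ICI-myocarditis and at 1115, 6389, 1301 and 1027 in controls. The ICI-myocarditis libraries lay within a factor of 1.14 of each other, the tightest of the family, and the log2 fold change was 4.11 (standard error 0.576, adjusted p = 0.00376 by limma). Irgm2, which in macrophages restrains the non-canonical inflammasome, stood at 18405, 20487 and 15892 in ICI-myocarditis and at 1388, 5027, 1744 and 1350 in controls. Its change was smaller, 3.17 on the log2 scale (standard error 0.435, adjusted p = 0.00374 by limma), and the groups did not overlap.

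Of the effectors, Iigp1 (Irga6) is the one whose loading onto the vacuole of Toxoplasma has been studied most, and it lies outside both clusters, on chromosome 18. It stood at 67453, 51450 and 43335 normalized counts in ICI-myocarditis and at 1490, 13203, 3895 and 3155 in controls. Its controls other than control 2 were spread more widely than those of the other genes, with control 1 lowest, and its log2 fold change was 3.75 (standard error 0.616, adjusted p = 0.00571 by limma). Ifi47 (Irgd) stood at 6564, 4150 and 5094 in ICI-myocarditis and at 199, 872, 337 and 206 in controls. It had the widest gap between groups, its lowest ICI-myocarditis library being 4.76 times its highest control, and the lowest adjusted p of the family. Its log2 fold change was 3.96 (standard error 0.473, adjusted p = 0.00285 by limma).

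Tgtp1 and Tgtp2 encode near-identical forms of Irgb6, an effector that is among the first to load onto the vacuole. Tgtp1 stood at 4023, 3402 and 3555 normalized counts in ICI-myocarditis and at 237, 1453, 383 and 385 in controls, a log2 fold change of 2.94 (standard error 0.515, adjusted p = 0.00709 by limma). Tgtp2 stood at 9154, 8680 and 7011 in ICI-myocarditis and at 470, 2484, 689 and 622 in controls, a log2 fold change of 3.29 (standard error 0.496, adjusted p = 0.00430 by limma). How reads were split between these genes is uncertain, as is whether reads that match another gene were counted at all. In GENCODE M21, 74.1% of the 150-base words of Tgtp1 transcripts, the length of 1 read, also occur in another gene, and so do 71.7% of those of Tgtp2. Tgtp1 took 36.1% ± 2.01 (SD, n = 4) of the reads of the pair in controls and 30.8% ± 2.75 (SD, n = 3) in ICI-myocarditis, and the ranges overlapped. Taken as 1 gene, the pair had a log2 fold change of 3.17 (standard error 0.505, adjusted p = 0.00503 by limma). Irgm1, Iigp1 and Ifi47 shared no such word with another gene, and Igtp and Irgm2 shared 16 with each other. GENCODE also places the start of Irgm2 inside Igtp on the same strand, so reads of shared exons there cannot be assigned with certainty.

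**Figure D2:**
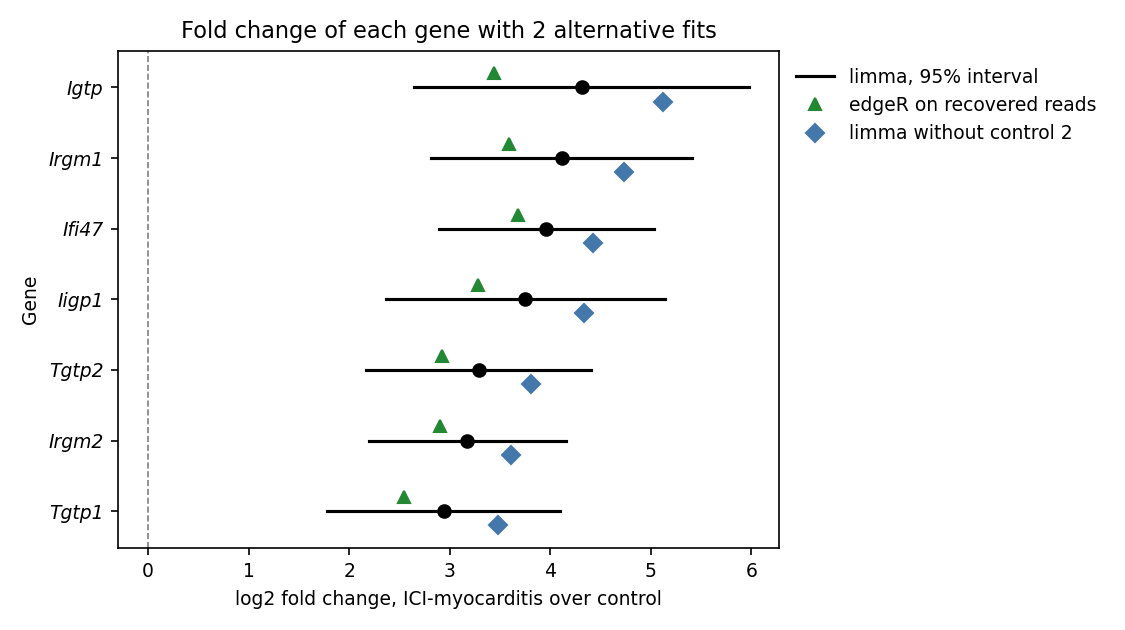
The log2 fold change of each gene (ICI-myocarditis over control), with its 95% interval from limma (circle and line), the value from edgeR on recovered reads (triangle) and the limma value without control 2 (diamond). For every gene the edgeR value is the lowest and the value without control 2 the highest of the 3, and every 95% interval lies above 0.

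All 7 genes were called in every alternative fit. The share of all genes tested that was called higher was 10.3% with edgeR, 14.2% with DESeq2 and 16.4% with limma-voom. It was 8.43%, 7.07% and 5.51% without ICI-myocarditis 1, 2 and 3, and 8.33%, 14.9%, 7.40% and 10.2% without control 1, 2, 3 and 4. The size of the change depended on control 2. Without it the log2 fold change was 5.12 for Igtp, 4.73 for Irgm1, 4.43 for Ifi47, 4.33 for Iigp1, 3.81 for Tgtp2, 3.61 for Irgm2 and 3.48 for Tgtp1. With edgeR, which compares group means, Igtp gave 3.44 and the largest adjusted p of any gene and alternative, 0.0311. In the authors' deposited table the log2 fold changes were 3.49 for Igtp and 3.63 for Irgm1, and both are listed without a p-value, as are 41 of the 19549 rows with a fold change. For the other 5 genes the authors' deposited table lists adjusted p-values from 2.68e-11 for Ifi47 to 4.24e-05 for Tgtp1. Gm12250, Gm4841, F830016B08Rik, Gbp1 and Gbp6, described below, are also listed there without a p-value.

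Whether the genes changed by unequal amounts was asked by the log2 ratio of each pair within a library, which does not depend on how libraries were scaled. Of 21 pairs, 9 did not overlap between groups, but none passed an exact two-sided permutation test after adjustment over the pairs (smallest adjusted p = 0.12). At an unadjusted exact p under 0.05 there were 5, each at 0.0286, the smallest p that the 35 splits allow. With that floor, adjustment over 21 pairs could pass a pair only if most pairs reached the floor together. That no pair passed therefore does not show that the genes changed equally. Irgm1 over Tgtp1 moved from 1.88 ± 0.374 (SD, n = 4) to 3.06 ± 0.105 (SD, n = 3), and Ifi47 over Tgtp1 from -0.52 ± 0.353 to 0.50 ± 0.210. Iigp1 over Tgtp1, Irgm1 over Tgtp2 and Ifi47 over Irgm2 moved by 0.81, 0.82 and 0.79 on the same log2 scale. The widest difference, 1.37, was that of Igtp over Tgtp1 (exact permutation p = 0.0571, adjusted p = 0.133). That pair and most of the 5 have Tgtp1 or Tgtp2 as the second gene, whose reads cannot be assigned with certainty. Tgtp2 over Irgm2 moved by 0.12, with groups that overlapped (exact permutation p = 0.486, adjusted p = 0.567).

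Levels of different genes were compared per kilobase of the longest principal transcript in GENCODE. Iigp1, Igtp and Irgm1 held the top 3 ranks in most libraries. Per kilobase they stood at 17327 ± 3932, 15524 ± 1316 and 13489 ± 913 normalized counts (SD, n = 3) in ICI-myocarditis. Iigp1 overlapped both of the others, and the lowest Igtp library, at 14282, lay just above the highest Irgm1 library, at 14156. Irgm2 came next in ICI-myocarditis, at 5263 ± 663, with no library overlapping those above or below it. Tgtp2, at 2947 ± 401, and Ifi47, at 2972 ± 686, overlapped, and Tgtp1 was lowest at 1297 ± 115. Most 150-base words of Tgtp1 and Tgtp2 also occur in another gene, and how such reads were counted is not known. The levels and ranks of Tgtp1 and Tgtp2, and the family shares that include them, are therefore uncertain. In control 1 the order at the top was Irgm1, Iigp1, Irgm2 and Igtp. The 3 Irgm genes made up 52.9% ± 6.91 (SD, n = 4) of the family level per kilobase in controls and 58.5% ± 3.61 (SD, n = 3) in ICI-myocarditis, and these shares overlapped.

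**Figure D3:**
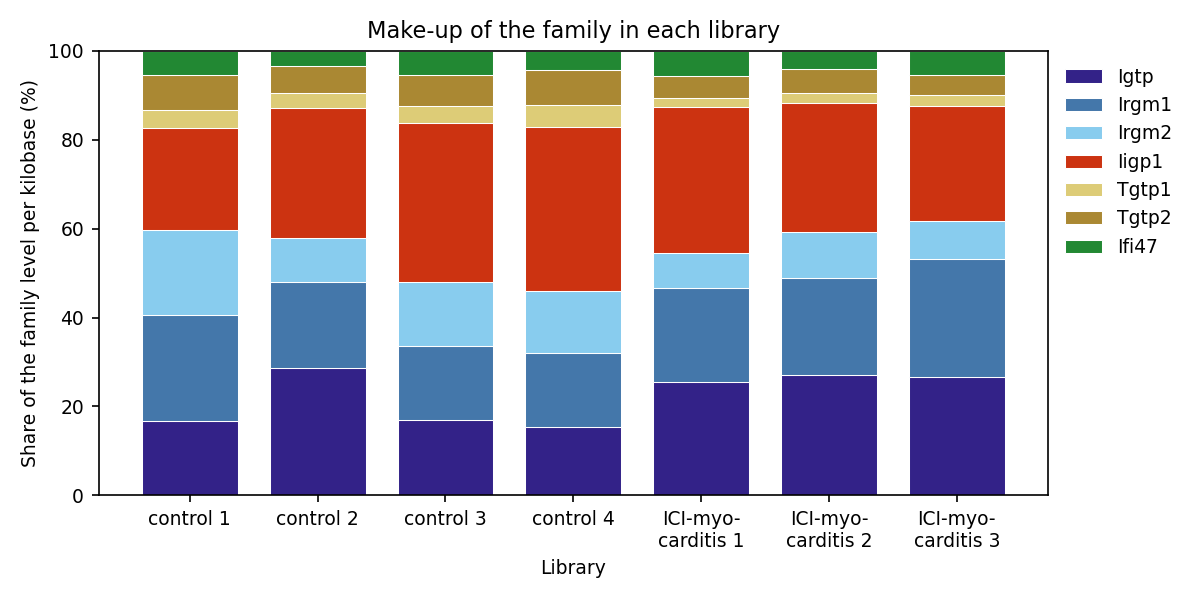
Share of the summed family level per kilobase (%) that each gene took in each library. The Irgm genes (the lower 3 blocks) took 46.1% to 59.7% in controls and 54.6% to 61.7% in ICI-myocarditis. The blocks of Tgtp1 and Tgtp2 are uncertain, since much of their sequence also occurs in another gene.

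Further genes of the family were taken from a list that names 9 genes of the table, of which 8 were tested. Limma called 5 higher and none lower, against 11.7% and 4.00% of all genes tested, with a median log2 fold change of 3.20. F830016B08Rik gave 66897 to 70859 normalized counts in ICI-myocarditis and 631 to 12221 in controls (log2 fold change 5.04, limma adjusted p = 0.00542). Gm12250, which RefSeq also names Irgb10 and whose product acts with guanylate-binding proteins on bacterial membranes, gave 11938 to 20030 and 121 to 2304 (5.38, limma adjusted p = 0.00497). Gm4951 and Gm5431 rose by 4.26 and 2.13. Gm4841 changed by 6.26 (limma adjusted p = 0.0103), but with edgeR its adjusted p was 0.0824. The paralogs 9930111J21Rik1 and 9930111J21Rik2 did not pass, at 1.21 and 1.43 (limma adjusted p = 0.0596 and 0.0709), and each was called in 3 of 19 alternatives. Without control 2 the log2 fold changes were larger, at 5.90 for F830016B08Rik, 6.30 for Gm12250 and 7.61 for Gm4841, and with edgeR they were 4.05, 4.31 and 4.06. Irgq, an atypical member, was at 0.15 (limma adjusted p = 0.778), and Irgc1, a testis gene, was below the filter.

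Neighbouring genes were examined within 200 kilobases of both chromosome 11 clusters, a window chosen after the values had been seen. Of 17 tested genes in neither list, 14 were not called, with log2 fold changes from -1.30 to 1.02. Called in either direction were 3 of the 17, near the share over all genes tested (15.7%). The uncalled genes include Larp1, Cnot8 and Gemin5 beside Igtp and Trim41, Zfp62 and Mgat1 beside the other cluster. The genes called higher were Gm12185 (log2 fold change 5.85, limma adjusted p = 0.00658, and 6.97 without control 2 or 4.28 with edgeR) and Olfr56 (3.06, limma adjusted p = 0.0203). Both overlap Tgtp1 in GENCODE, Gm12185 on the same strand. Olfr56 also overlaps Tgtp2, on the opposite strand, and Ifi47, on the same strand. Whether counting used strand is not given in the sources used here. Btnl9, a butyrophilin-like gene, fell by 2.19 on the log2 scale (limma adjusted p = 0.00376).

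**Figure D4:**
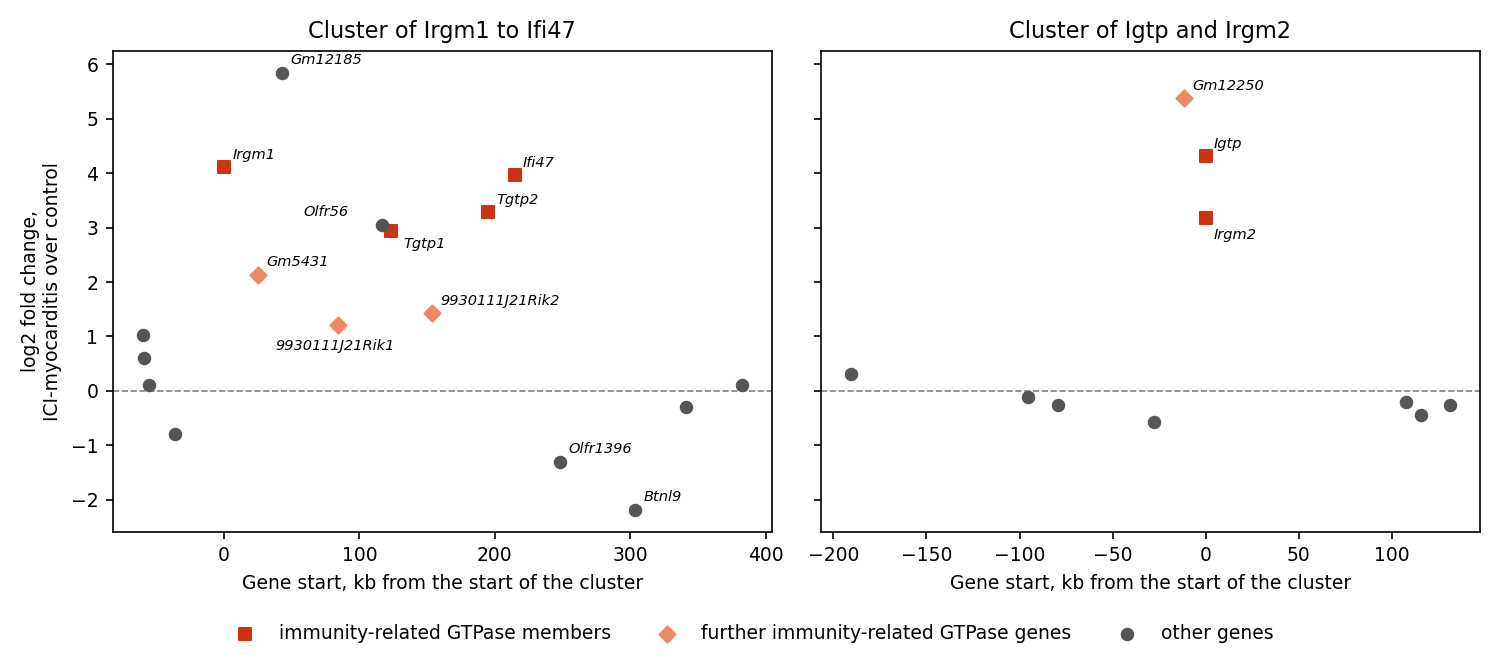
The log2 fold change (ICI-myocarditis over control) of every tested gene within 200 kilobases of the 2 chromosome 11 clusters, against its start in kilobases from the start of the cluster. Squares are the family genes, diamonds further genes of the family list and circles other genes, most of which lie near 0.

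Guanylate-binding proteins are larger interferon-inducible GTPases that work beside the immunity-related GTPases on the same vacuoles. Of 11 tested, 10 were called higher and none lower, against 11.7% and 4.00% of all genes tested. Their median log2 fold change was 3.62. Gbp6 rose by 4.04, Gbp2 by 3.62 and Gbp1 by 6.63, and Gbp9 did not pass (1.51, limma adjusted p = 0.0522), though it was called in 4 of 19 alternatives. Without control 2 the values were 4.75 for Gbp6, 4.22 for Gbp2 and 7.98 for Gbp1, and with edgeR Gbp1 stood at 4.47 (adjusted p = 0.0489). Of the other interferon-inducible GTPases, Mx1 rose by 3.17 (3.94 without control 2), holding in 14 of 19 alternatives. Mx2 was not called, and Gvin1 and Gm4070 were at 0 in all libraries and so below the filter. The summed immunity-related GTPases over the summed guanylate-binding proteins gave a ratio of 1.68, 1.37 and 0.993 in ICI-myocarditis libraries 1 to 3 and 0.711, 0.832, 0.904 and 1.07 in controls 1 to 4. ICI-myocarditis 3, with the lowest family sum of its group and the highest guanylate-binding sum, lay inside the control range.

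Of the interferon ligands only Ifng, the main inducer of the family, was tested. It gave 244, 283 and 583 normalized counts in ICI-myocarditis and at most 55.5 in controls, the highest again being control 2 (log2 fold change 5.96, limma adjusted p = 0.00935). Without control 2 its log2 fold change was 7.08, and with edgeR 4.55. Of the receptors and their kinases, 1 of 7 was called higher, near the 11.7% of all genes tested, and their median was 0.52 against -0.02. In 3 of the 7 every ICI-myocarditis library lay above every control, as it did for 17.3% of all genes tested. The called gene was Jak2, at 0.82 (limma adjusted p = 0.0359), and it held in 11 of 19 alternatives. Tyk2 stood at 0.80, Ifnar1 at 0.58 and Ifnar2 at 0.52 (limma adjusted p = 0.0815, 0.0841 and 0.0824), and Jak1 was not called. Ifngr1 stood at 0.31 and Ifngr2 at -0.47 (limma adjusted p = 0.367 and 0.494). Of the transcription factors 7 of 9 rose, with a median of 2.29. Irf8 rose by 3.04, Batf2 by 4.65 and Irf1 by 2.29, the last missing the threshold in 1 of 19 alternatives (largest adjusted p = 0.0552). Without control 2 Batf2 stood at 5.39. Irf3 and Irf9 were not called.

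The feedback inhibitors Socs1 and Socs3 rose by 4.55 and 3.16, and Usp18, which dampens type I interferon receptors, by 1.97, holding in 15 of 19 alternatives. Without control 2 Socs1 stood at 5.17. Ptpn2 and Pias1 were not called. Irgm proteins and the loading of effectors depend on the autophagy conjugation genes, and of these 12 none was called by limma in either direction (median -0.15). With 15.7% of all genes tested called in either direction, a count of 0 among 12 does not set these genes apart. The lowest unadjusted p among them was that of Atg16l1, at 0.127, with a log2 fold change of -0.32. Of 6 tested genes for ubiquitin and adaptors at the vacuole, 1 was called higher and 1 lower, against 11.7% and 4.00% of all genes tested. Trim21, a ubiquitin ligase, rose by 1.64. Optn, an autophagy receptor, fell from a mean of 2581 to 1284 normalized counts, which missed the threshold in 1 of 19 alternatives. Of 7 caspases and sensors that act downstream of vacuole rupture, 6 rose, with a median of 2.18, among them Casp1 at 2.73 and Casp4 at 2.38. Nlrp3 at 2.56 held in 15 of 19 alternatives, and Nlrc4 did not pass.

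The genes outside the family whose profiles over the 7 libraries lay nearest to the mean of the family, by the root mean square difference of centred log2 values among 13942 genes, were Rgs1 (0.197), Cd274 (0.254), Tap1 (0.259), Phf11a (0.262) and Hcst (0.282). The nearest single match was Gbp6 to Irgm1, at 0.121. Igtp was nearest to Cd69, Gimap3 and Lck, genes typical of lymphocytes. Ifi47 was nearest to H2-DMb1 and H2-Eb1 of MHC class II, and Tgtp1 to Ccnb1, Batf and Dlgap5. Irgm2 was nearest to H2-T23, Tgtp2 to Rgs1 and Iigp1 to P2ry10. Within the family the closest profiles were Irgm2 and Tgtp2 (0.181) and the farthest Igtp and Tgtp1 (0.780). These are descriptions over 7 libraries in 2 groups.

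Markers of immune cells moved with the family. All 8 T cell markers rose, among them Cd3g by 5.20 and Cd4 by 2.89 on the log2 scale, and their summed level was 8334 to 12802 normalized counts in ICI-myocarditis, 2012 in control 2 and 464 to 828 in the other controls. All 7 macrophage and monocyte markers in the table rose, among them Ctss by 4.29 and C1qb by 2.74, and their sum went from 11517 to 16814 in controls to 57072 to 89861 in ICI-myocarditis. B cell markers summed to 61.5 to 141 and 263 to 543, and neutrophil markers to 48.4 to 210 and 316 to 876, with 2 of 5 and 1 of 3 tested called higher. By limma, 3 of 6 endothelial markers were called lower, 2 of 6 fibroblast markers higher and none of the 8 cardiomyocyte markers (median -0.79). Over all genes tested, 11.7% were called higher and 4.00% lower. All 8 cardiomyocyte markers were nonetheless lower in ICI-myocarditis, with log2 fold changes from -1.27 to -0.46. Of these 8, the authors' deposited table lists only Ryr2, Tnni3 and Myh6 with an adjusted p under 0.05. All 6 endothelial markers are lower there with an adjusted p under 0.05. No marker of these lists was at 0 in all libraries. The part of these cells in the rise of the family was not tested. Among the ICI-myocarditis libraries the order was not the same: library 3 had the highest T cell and macrophage sums and the lowest family sum.

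**Figure D5:**
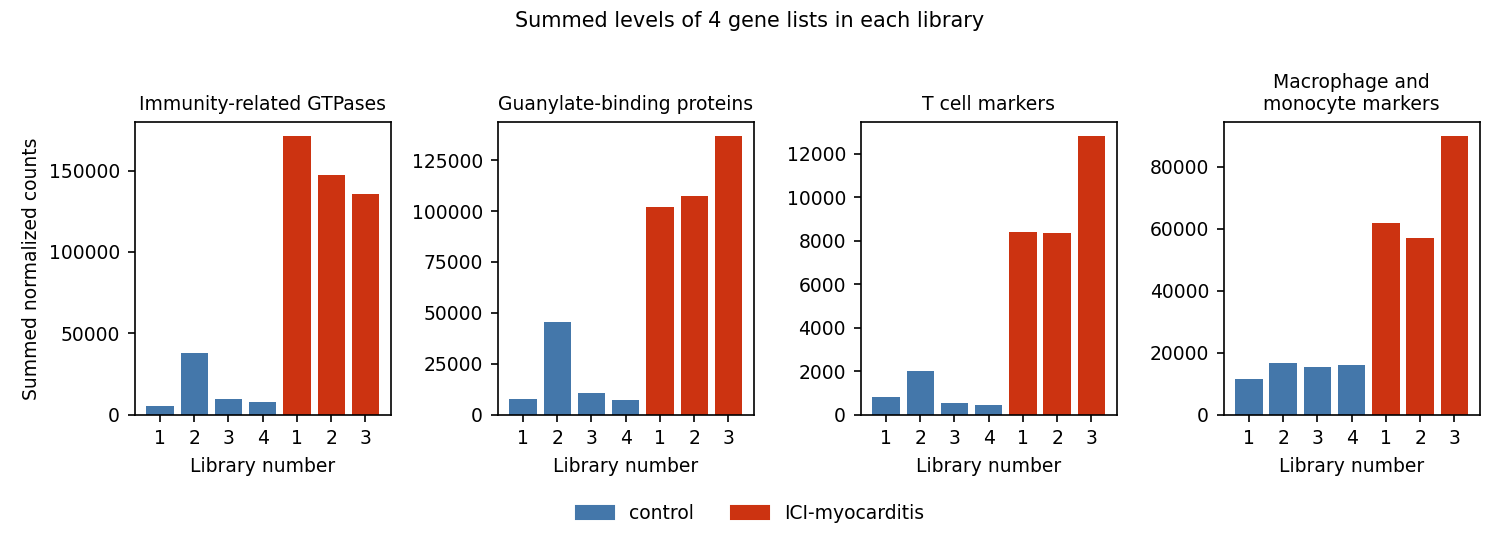
Summed normalized counts of 4 gene lists in each library, controls 1 to 4 and then ICI-myocarditis 1 to 3. Control 2 is the highest control in all 4 panels, by the least for the macrophage and monocyte markers, and ICI-myocarditis 3 is lowest of its group for the immunity-related GTPases and highest for the other 3 lists.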

How the data were processed

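Per the labels' protocols, RNA came from flash-frozen ventricle (the tissue label reads whole heart), with a stranded total RNA kit and paired-end reads of 150 bases. STAR 2.7.3 and GRCm38 (mm10) are named in the submitters' processing notes; the counting tool, its gene models and whether strand was used are not given in the sources used here. The deposited per-library values are a signal, which the authors made by dividing the reads of each gene by a size factor of the library. The deposited table also holds the authors' log2 fold change, its standard error and, as a score, their test statistic. Its last columns give the authors' p-value, raw and adjusted.

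Reads were recovered by dividing each column by its smallest step; in control 1 that step is so near 1 that recovery is less certain there. Limma 3.58.1 (R 4.3.3; trend and robust variance) was run on log2(normalized count + 1) for genes that reached 10 normalized counts in 3 or more libraries. P-values were adjusted by Benjamini-Hochberg over all genes tested (threshold 0.05). Fold changes are on that log2 scale, which understates low genes. The fit was tested on simulated data. EdgeR 4.0.16, DESeq2 1.42.0 and voom on recovered reads, other scalings, pseudocounts and filters, a replicate block and leaving out each library were alternatives. Pairs were compared with scipy 1.17.1; the two-sided p was first taken as the smaller tail doubled, and the size of the difference replaced it after those values were seen, because the design states a smallest p of 1 in 35 splits.

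The members and lists were chosen with earlier results of these data known. Genes named are the family, Ctla4 and Pdcd1, up to 3 genes per list with the lowest p, the interferon receptors, kinases and factors (1 of them counted in its list but not reported here), and the nearest profiles (predicted genes passed over). Named outside that rule after their values were seen were the remaining genes of the further family list, the chromosome 11 neighbours, Gbp9, Ptpn2, Pias1 and Nlrc4. Per-kilobase shares, the ratio to guanylate-binding proteins and shared words were also added then. The labels call the samples replicates and do not name litters or sexes, so p-values measure the spread between these samples. Counts without molecular identifiers are not independent molecules.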

Additional observations from a re-analysis of the deposited data

Results flagged for a closer look

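In 3 of 35 results tested for a library far from its group, control 2 lay apart from the other controls, measured as its gap to the nearest control over the range of the controls. These were the log2 level of Irgm1 (0.871), the log2 ratio of Igtp over Ifi47 (0.846) and the log2 ratio of Irgm1 over Irgm2 (0.861). In all 3 control 2 was the highest control. Chance flags about 1 in 20 groups, or 1.75 of 35, and these results share libraries and genes. Control 2 was also the highest control for all 7 genes of the family.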

How the results depend on the processing

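All 7 family genes kept their direction and their call under 18 alternatives, the leave-one-out fits included (7 in each). The count over all genes was 2397 and moved to 4038 with limma-voom. Leaving out 1 library gave 986 (without ICI-myocarditis 3) to 3340 (without control 2), with 1396 without ICI-myocarditis 2, 1508 without control 1 and 1298 without control 3. No pair passed under either pseudocount. The two-sided p as the smaller tail doubled, an alternative chosen after seeing the data, could pass no pair. Its smallest exact permutation p over the 35 splits is 0.0571, above the threshold before adjustment. Its result (0 of 21, smallest exact adjusted p = 0.133) is therefore no check on the main one. Pair tests without 1 library were not run, since so few libraries cannot reach the threshold, and the pair differences kept their sign throughout. Library-size scaling alone moved the median log2 fold change of all genes from -0.02 to 0.13. Same-numbered libraries did not deviate together (correlations -0.27, -0.21 and -0.08), so the numbers were not taken as pairs; with the replicate block 1780 genes (9.12% of those tested being higher) and all 7 family genes were called. Further genes lost their call in at least 1 alternative: Jak2 in 8, Mx1 in 5, Nlrp3 and Usp18 in 4, Olfr56 in 2, and Irf1, Optn, Gm4841 and Pdcd1 in 1. Calls were gained by Gbp9 in 4 alternatives (smallest limma adjusted p = 0.000659) and by 9930111J21Rik1 and 9930111J21Rik2 in 3 each (smallest 0.0105 and 0.0103), all 3 of these minima without control 2. Depth does not limit the family, whose summed reads were at least 5561 in every library; 4 control and 3 ICI-myocarditis libraries do.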
